A study of Oryza sativa Japonica Group with 15 samples.

Results

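The 100 rice root genes described here are those whose transcript level most closely followed that of IRT1 (Os03g0667500), an iron transporter gene, from library to library. They were taken from 14024 candidate genes, the rice genes of the deposited table with a mean of at least 20 normalised reads. A normalised read is a read count divided by the size factor of its library. For each candidate, Pearson's r with IRT1 was computed on log2(normalised reads + 1) over 15 libraries, and members were chosen by this value alone: the 100 genes with the highest r, 0.713% of the candidates, with IRT1 itself left out. All 15 libraries thus entered the choice, and the levels of the members in every group are descriptions, with no test.

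Grasses take up iron mainly as a chelate. Roots make nicotianamine from methionine, turn it into deoxymugineic acid, secrete this phytosiderophore, and bring back its ferric complex through transporters of the YSL family. Rice can also take up ferrous iron directly, through IRT1. Genes of both routes and of the methionine salvage cycle that refills the precursor are known to be induced together when iron is short, largely through transcription factors of the bHLH class.

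Roots of Kitaake, a japonica rice cultivar, were sampled from seedlings after a leaf spray with a resistance inducer or a mock solution, and each of the 5 groups had 3 libraries, each from the pooled roots of 4 plants. BABA (beta-aminobutyric acid) was sprayed at 3.5 mM and ASM (acibenzolar-S-methyl, a functional analogue of salicylic acid) at 250 µM, both on day 13. PA (piperonylic acid, an inhibitor of cinnamate 4-hydroxylase) was sprayed at 300 µM, on days 7 and 13 in PA2x and on day 13 in PA1x. Mock plants received their spray on day 13, so the PA2x schedule lacks a mock counterpart. All sprays held 0.1% Tween 20, and all roots were taken on day 14 after transplantation. Seedlings had been transplanted 5 days after germination. Doses differed between the compounds. The labels name no iron treatment. Whole roots were pooled, so fewer cells of a type and less RNA per cell cannot be told apart in any value below.

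Recovered reads ran from 4130194 to 9480830 per library. Of the root markers RCc3, Lsi1, Lsi2, SHR1 and SCR1, the first 3 were abundant in every library, and of the 3 root hair markers, CSLD1 (Os10g0578200) had a mean of 58.9 normalised reads while RHL1 and EXPA17 were near 0, at 0.33 and 0.05. The leaf markers CAB1R, CAB2R, RBCS2, RBCS3 and RBCS4 summed to 7.43 to 295 normalised reads. RBCS2 was at 0 in ASM replicate 3, PA2x replicate 2, PA1x replicate 1 and mock replicate 1. All p-values measure the spread between these pools of plants.

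IRT1 separated 3 libraries from the other 12. It had 9501, 11647 and 8108 normalised reads in BABA replicates 1 to 3, 11709, 4592 and 4404 in ASM, 9301, 4702 and 8565 in PA2x, 8475, 11297 and 9856 in PA1x, and 12167, 10346 and 9909 in mock. ASM replicates 2 and 3 and PA2x replicate 2 lay at 4404 to 4702, and all other libraries at 8108 or more. Group means were 9752 ± 1783 in BABA, 6902 ± 4164 in ASM, 7522 ± 2470 in PA2x, 9876 ± 1411 in PA1x and 10807 ± 1197 in mock (SD, n = 3 each). In order, mock was followed by PA1x, BABA, PA2x and ASM, and no neighbours in that order differed by more than the larger of their SDs. The 3 PA2x values lay below the 3 mock values, whereas the values of BABA, ASM and PA1x overlapped with those of mock. The 3 libraries with little IRT1 had 6493851, 6066946 and 6296694 reads, inside the range of the others, and 4037 to 4770 reads of IRT1 itself.

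YSL15 (Os02g0650300), the transporter that takes up ferric deoxymugineic acid at the root surface, was the gene most like IRT1 (r = 0.966). It had 10797, 11119 and 9192 normalised reads in BABA, 12460, 5790 and 6496 in ASM, 10977, 6296 and 9941 in PA2x, 9273, 10333 and 9771 in PA1x, and 13064, 11855 and 10760 in mock. The same 3 libraries were the lowest, and ASM replicate 1 lay inside the range of the mock libraries. Its r was 0.976 on deviations from the group means, and 0.807 over the 12 libraries that remain when the 3 low ones are left out.

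Among all members r ran from 0.822 to 0.966, with a median of 0.865, against a median of -0.04 over all candidates. Just inside the limit were Os01g0391100 (0.824), Os01g0320700 and Os07g0628500 (both 0.823), and Os06g0692100 and Os01g0649900 (both 0.822). Just outside lay Os07g0123900 and Os07g0639400 (both 0.821), the methylthioribose kinase gene MTK1 (Os04g0669800) and Os10g0498100 (both 0.820), and Os01g0853800 (0.819). No gap marks the edge of the set. Every member had a Pearson r of at least 0.709 on within-group deviations, with a median of 0.888, against -0.00485 for all candidates. Spearman's rho had a lower median of 0.727 and ran from 0.336 to 0.961. All these values share the same 15 libraries and depths. The rule used these libraries, so the gap to all candidates follows largely from the choice of members.

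The 3 libraries low in IRT1 were also the 3 lowest for 93 of the 100 members, against 2.19% of all candidates. This contrast follows largely from the rule, which chose genes that follow IRT1 over these same libraries. For each member the single lowest library was among those 3: ASM replicate 2 for 36 members, ASM replicate 3 for 37 and PA2x replicate 2 for 27. The exceptions to the first count were SAMS2, ARD1, Os01g0770700, Os02g0184900, Os02g0454500, Os04g0605300 and Os09g0426000. The median member lay 0.53, 0.58 and 0.58 below its own mean on the log2 scale in these 3 libraries, in that order, and 0.02 to 0.33 above it in the 12 others. Mock replicate 1 was the highest library for 29 members and ASM replicate 1 for 25. Over the other candidates the median deviation stayed between -0.001 and 0.030 in all 15 libraries. Scaling by size factors largely sets this median, so it does not show that the shift is particular to the members.

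**Figure D1:**
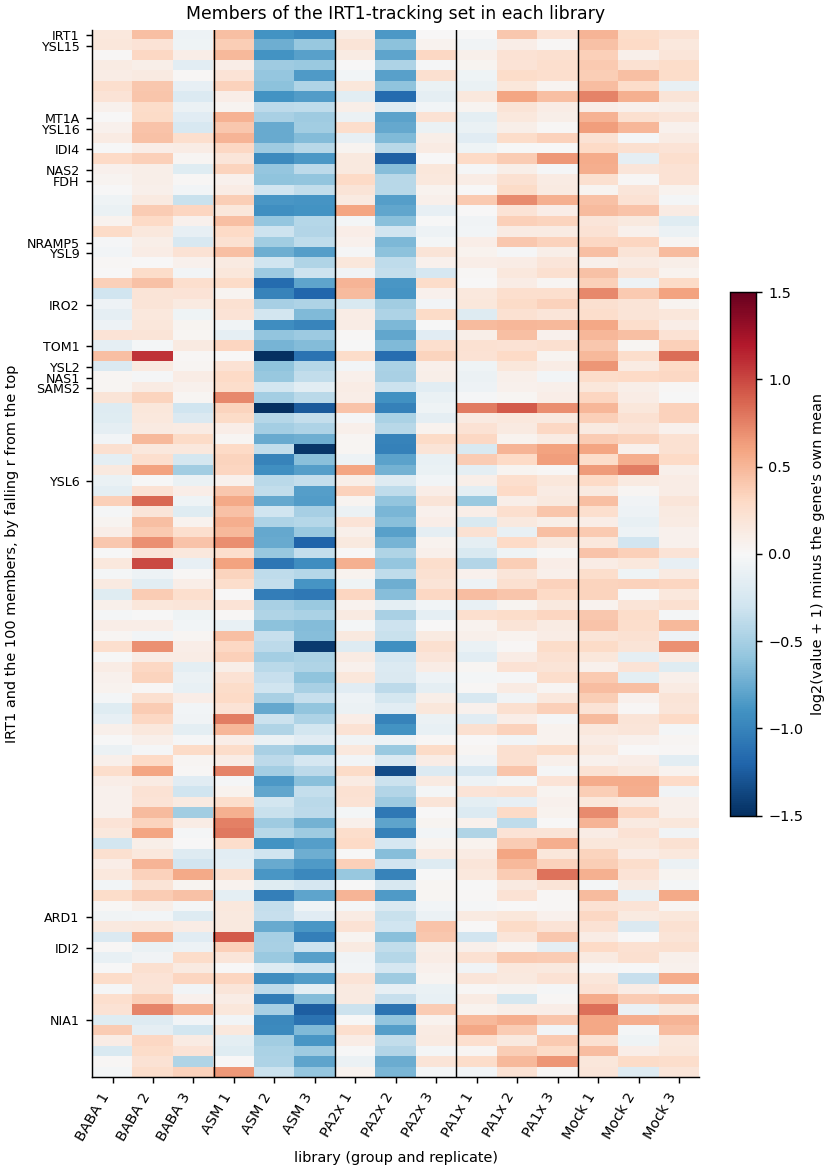
Log2(normalised reads + 1) minus the gene's own mean for IRT1 (top) and the 100 members below it in order of falling r (vertical axis, members with a name labelled; colours end at ±1.5), in the 15 libraries (horizontal axis, black lines between groups). The columns of ASM replicates 2 and 3 and PA2x replicate 2 are low for nearly all members, and ASM replicate 1 is not.

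With those 3 libraries left out, r with IRT1 ran from -0.106 to 0.948 among the members, with a median of 0.496, against 0.0235 over all candidates. It was at least 0.5 for 50 members, against 4.33% of the candidates, at least 0.8 for 6, and negative for 6. The libraries kept here had entered the rule too. The highest was Os01g0770700 (0.948), whose rho over 15 libraries was also the highest of all members (0.961). It had 2015, 2691 and 1348 normalised reads in BABA, 2798, 1535 and 1465 in ASM, 1888, 920 and 1942 in PA2x, 1672, 2368 and 2007 in PA1x, and 3165, 2417 and 2034 in mock. In BABA, PA1x and mock too, this gene was highest where IRT1 was highest. Of the 100 genes with the highest r over the 12 libraries, 19 were members, among them YSL15, MT1A, YSL16, NRAMP5 and SAMS2.

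**Figure D2:**
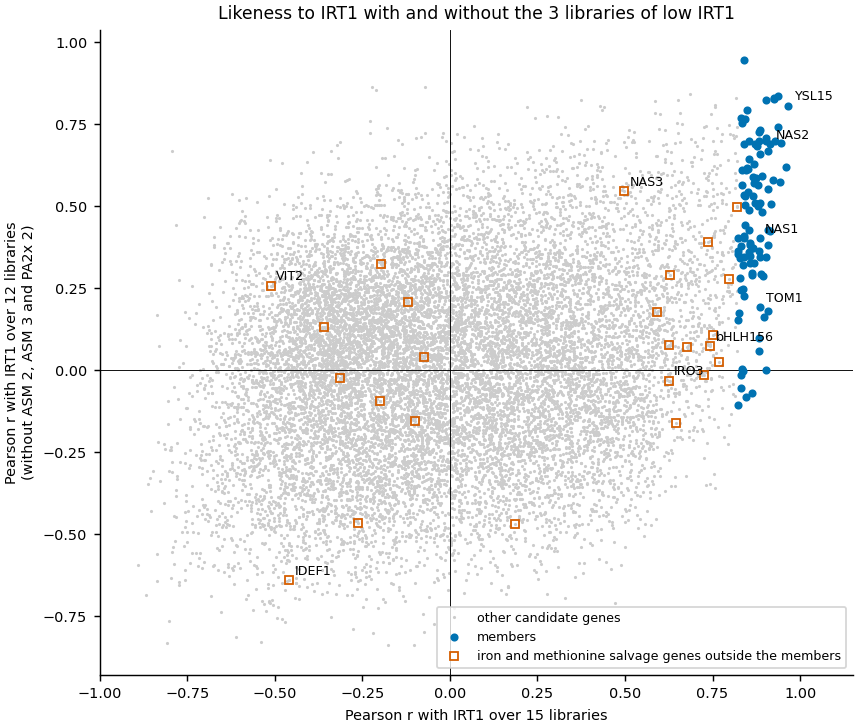
Pearson r with IRT1 over 15 libraries (horizontal axis) and over the 12 libraries without ASM replicates 2 and 3 and PA2x replicate 2 (vertical axis), 1 point per candidate gene, with members filled and listed iron and methionine salvage genes outside the members as open squares. The members, all at 0.822 or more on the horizontal axis, spread from -0.106 to 0.948 on the vertical axis, and YSL15 stays high on both.

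By role, YSL transporters, which carry chelated metals, gave 5 members, YSL15 among them. Other genes of this family were not on the lists, so no share of the family can be given. YSL16 (Os04g0542800), which moves metal-nicotianamine complexes in vascular tissue, had an r of 0.926. YSL9 (Os04g0542200), which carries iron complexes of nicotianamine and deoxymugineic acid, had 0.904. YSL2 (Os02g0649900), a carrier of iron and manganese nicotianamine complexes, had 0.885. YSL6 (Os04g0390500), a manganese nicotianamine carrier named after its values had been seen, had 0.874. They differed in level, with means of 913, 905, 201 and 1119 normalised reads in that order, compared with 9875 for YSL15. YSL16 had 915, 1179 and 745 normalised reads in BABA, 1163, 519 and 612 in ASM, 1057, 516 and 828 in PA2x, 820, 933 and 889 in PA1x, and 1354, 1244 and 915 in mock. The ASM values spanned a wider range than those of any other group. Reads here come from transcript 3′ ends and are not divided by length, so a level counts transcripts and not bases. Near copies within the family can share reads.

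NRAMP5 (Os07g0257200), the main manganese uptake transporter of rice roots, which also carries iron and cadmium, ranked with them (r = 0.904). It had 3785, 4064 and 3244 normalised reads in BABA, 4488, 2669 and 2947 in ASM, 4001, 2400 and 3756 in PA2x, 4097, 5066 and 4892 in PA1x, and 4771, 4806 and 3908 in mock. TOM1 (Os11g0134900), which exports deoxymugineic acid from root cells, had 2664, 2855 and 3208 in BABA, 3637, 1794 and 1857 in ASM, 2909, 1836 and 3477 in PA2x, 3418, 3377 and 3451 in PA1x, and 3862, 2984 and 3726 in mock. Both genes had the same 3 lowest libraries. Over the other 12 libraries their r with IRT1 was 0.70 for NRAMP5 and 0.193 for TOM1.

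Nicotianamine synthesis was represented by NAS1 (Os03g0307300) and NAS2 (Os03g0307200), adjacent genes that encode nicotianamine synthases and whose reads may be split between near copies. NAS2 had 66912, 67995 and 56475 normalised reads in BABA, 81026, 42670 and 48665 in ASM, 70589, 40972 and 71929 in PA2x, 63476, 67946 and 63371 in PA1x, and 93606, 72815 and 74281 in mock. NAS1 had 16955, 16390 and 18035 in BABA, 20423, 11241 and 12876 in ASM, 17561, 11894 and 17713 in PA2x, 15666, 17598 and 16244 in PA1x, and 20233, 20556 and 20634 in mock. For NAS1 all values of BABA, PA2x and PA1x lay below the 3 mock values, while ASM replicate 1 lay among them. The later steps of the pathway were less like IRT1. The aminotransferase gene NAAT1 and the deoxymugineic acid synthase gene DMAS1 had an r of 0.736 and 0.769 and were not members. Neither was NAS3 (0.50), the remaining nicotianamine synthase gene.

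IRO2 (Os01g0952800), the bHLH factor that activates the phytosiderophore genes, was the sole member from the list of iron regulators (r = 0.892, and 0.482 over the 12 libraries). It had 592, 715 and 687 normalised reads in BABA, 735, 441 and 453 in ASM, 534, 435 and 606 in PA2x, 704, 766 and 793 in PA1x, and 738, 716 and 645 in mock. Again the 3 libraries were lowest, and PA2x as a whole lay below mock and PA1x without overlap.

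**Figure D3:**
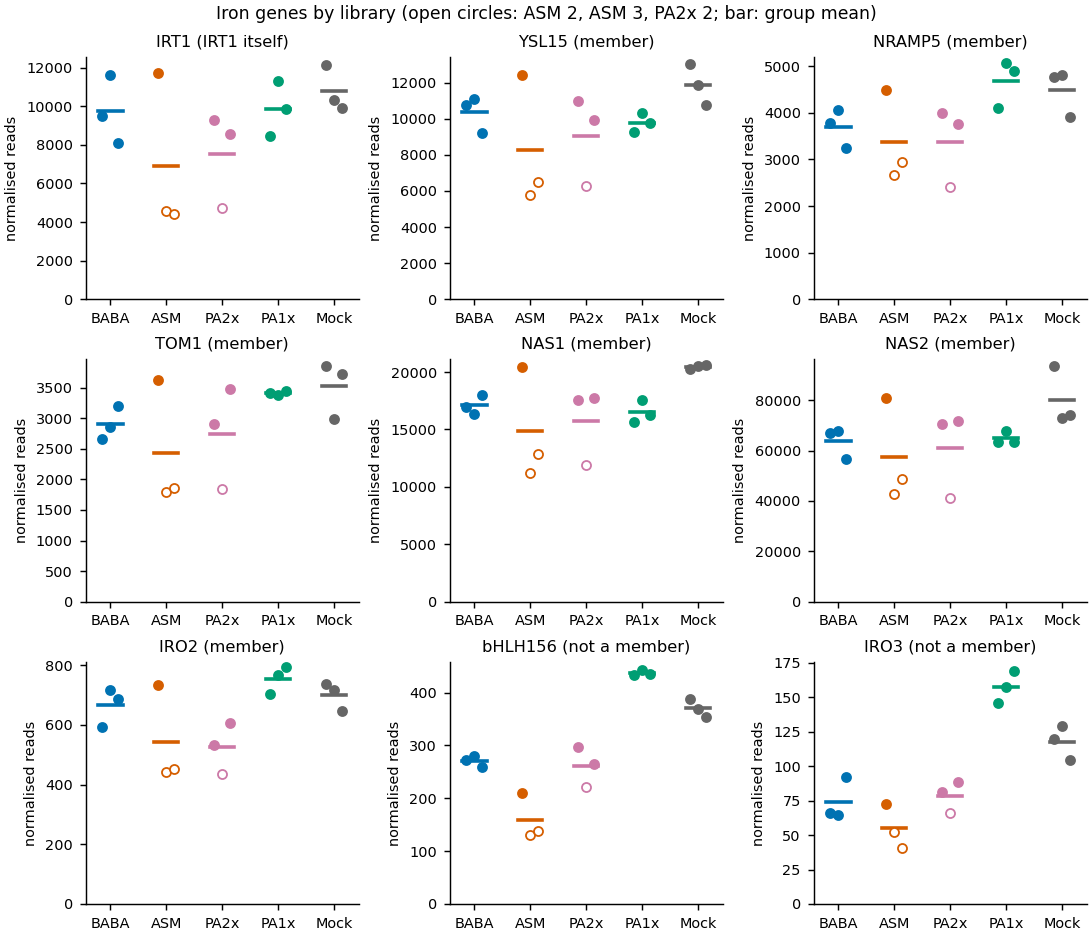
Normalised reads (vertical axes, from 0) of IRT1, 6 members and the regulator genes bHLH156 and IRO3, which are not members, in BABA, ASM, PA2x, PA1x and mock roots. Each circle is a library, bars are group means, and open circles mark ASM replicates 2 and 3 and PA2x replicate 2, which are the lowest of IRT1 and each of the 6 members.

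Methionine salvage gave 5 members. IDI4 (Os09g0453800), the aminotransferase of its last step, had an r of 0.917. The others were the S-adenosylmethionine synthase gene SAMS2 (Os01g0323600, 0.884), the acireductone dioxygenase gene ARD1 (Os03g0161800, 0.834), the methylthioribose phosphate isomerase gene IDI2 (Os11g0216900, 0.832) and the formate dehydrogenase gene FDH (Os06g0486800, 0.909), whose substrate the cycle releases. IDI4 had 3327, 3583 and 3602 normalised reads in BABA, 4134, 2311 and 2508 in ASM, 3452, 2514 and 3652 in PA2x, 3192, 3338 and 3367 in PA1x, and 4110, 3946 and 3849 in mock. FDH had 2386, 2464 and 2358 in BABA, 2427, 1523 and 1535 in ASM, 2865, 1744 and 2582 in PA2x, 2514, 2723 and 2539 in PA1x, and 2743, 2355 and 2704 in mock. For both genes the 3 libraries low in IRT1 were the lowest, and no other library came near them. SAMS2, which makes the methyl donor from which nicotianamine is built, had 5603, 6021 and 5755 in BABA, 6593, 4535 and 4928 in ASM, 5952, 4392 and 4927 in PA2x, 5235, 5778 and 5799 in PA1x, and 6211, 5834 and 5597 in mock. PA2x replicate 3 lay level with ASM replicate 3 here, so SAMS2 is among the exceptions named above. IDI4 and NAS1 were the most alike of all pairs of members (r = 0.977). The pairwise r among members had a median of 0.776 and a minimum of 0.446, between Os02g0184900 and NIA1.

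NIA1 (Os08g0468100), which encodes a nitrate reductase, was the sole member of the nitrogen list (r = 0.826). It had 474, 469 and 525 normalised reads in BABA, 524, 274 and 249 in ASM, 538, 356 and 560 in PA2x, 755, 783 and 718 in PA1x, and 803, 788 and 769 in mock. This gene split by group as well as by library: all 9 values of BABA, ASM and PA2x lay below all 6 of PA1x and mock.

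MT1A (Os11g0704500), a metallothionein gene named after its values had been seen, was the most abundant member, with a mean of 270292 normalised reads and an r of 0.927. It had 263544, 319274 and 233539 in BABA, 376368, 187484 and 180645 in ASM, 246857, 149999 and 304419 in PA2x, 237532, 292723 and 279671 in PA1x, and 376259, 309584 and 296484 in mock. Metallothioneins are small cysteine-rich proteins that bind metals. The second gene by r, Os12g0568500 (0.959), was also abundant, at 46058 and 48525 in ASM replicates 2 and 3 and 49564 in PA2x replicate 2, and between 86400 and 119444 in the 12 others. In 6 members the mean was higher than that of IRT1.

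The members together took 7.99%, 9.07% and 8.25% of all normalised reads in BABA, 10.3%, 5.59% and 5.35% in ASM, 7.65%, 4.81% and 9.27% in PA2x, 8.45%, 9.50% and 9.50% in PA1x, and 10.8%, 8.72% and 9.58% in mock. The share was under 6% in the 3 low libraries and above 7% in the others. Most of it came from the 4 members with a mean over 20000, MT1A, NAS2, Os12g0568500 and Os12g0570700, with 3.89% to 9.13%. All other members took 0.921% to 1.63%. The median deviation of the other candidates, at most 0.030 in any library, is largely set by the scaling with size factors.

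**Figure D4:**
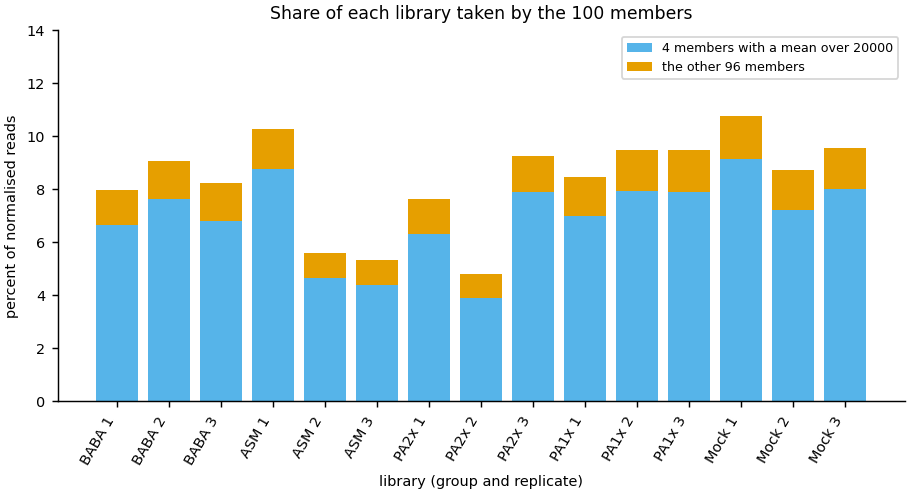
Percent of all normalised reads of a library (vertical axis, from 0) taken by the 4 most abundant members and by the other members, stacked, in each of the 15 libraries (horizontal axis). The total is 4.81% to 5.59% in ASM replicates 2 and 3 and PA2x replicate 2, and 7.65% to 10.8% in the other libraries.

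The size of the swing differed widely between members. The ratio of the highest to the lowest library had a median of 2.41 and ran from 1.22 to 10.1. Os07g0499500 had the widest range, 3.16 on the log2 scale, with 43.6, 68.4 and 32.1 normalised reads in BABA, 31.8, 6.74 and 14.2 in ASM, 38.7, 13.8 and 40.3 in PA2x, 37.1, 39.1 and 32.6 in PA1x, and 44.9, 38.2 and 57.4 in mock. Os06g0692600 (2.46) and Os01g0142300 (2.12) followed. The narrowest ranges were those of Os05g0539700 (0.28), Os04g0478000 (0.45) and Os04g0297800 (0.52). Fitted against IRT1 on the log2 scale, the slope had a median of 0.60, so a typical member moved less than IRT1 itself, and it was above 1 for 6 members. The median range was 1.26 for the members and 0.89 for all candidates.

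Division of the variance put more of a typical member's swing within groups than between them. Group membership held a median of 40.5% of a member's variance, with a range of 5.99% to 80.0%, close to the 40.1% of all candidates. On deviations from the group means alone, 40 members had an r of at least 0.9 with IRT1. The highest were Os05g0582000 (0.990), YSL15 (0.976), Os11g0151700 (0.974), Os03g0626700 (0.971) and Os06g0113900 (0.966). Os05g0582000 had 54.9, 62.9 and 45.5 normalised reads in BABA, 74.6, 30.8 and 30.5 in ASM, 63.1, 31.8 and 60.4 in PA2x, 75.7, 94.4 and 83.3 in PA1x, and 78.2, 66.9 and 56.1 in mock. Inside each group its libraries had the same order as those of IRT1.

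Beyond IRT1 and YSL15, the members with the highest r were Os12g0568500 (0.959), Os06g0113900 (0.946), Os08g0302000 (0.941), Os07g0193000 and Os04g0380300 (both 0.936), Os04g0553800 (0.928), MT1A, YSL16 and, close behind, Os11g0186900 (0.922). Most members carry no name in the sources used here. In identifier order, 8 pairs of genes, IRT1 counted among them, lay within 10 rows of each other, and 3 pairs were adjacent. These were YSL2 with YSL15 (r between the pair of 0.885), NAS2 with NAS1 (0.920), and Os07g0519100 with Os07g0519300 (0.867). YSL9 and YSL16 had 1 row between them (0.815). The members lay on all 12 chromosomes, with the highest share of candidates on chromosome 12 (10 members, 1.41%) and the lowest on chromosome 9 (2 members, 0.267%).

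The lists of the pathway show which iron genes were left out of the set. Of 18 candidates of the iron acquisition list, IRT1 left out, 8 were members, and the median r of the list was 0.752. Outside were NRAMP1 (0.73), OPT7 and ENA1 (both 0.63), and FRDL1, PEZ1 and PEZ2, with r of -0.10, -0.36 and -0.07. TOM2 (Os11g0135000) was not a member either. Its log2 fold change for ASM against mock was 0.15 ± 0.33 (SE), where TOM1 had -0.61 ± 0.24. The methionine salvage list had 5 members among 11 candidates and a median of 0.820, and the iron regulation list 1 of 7 and 0.625. None of 3 iron storage genes was a member (median -0.201). The ferritin genes FER1 and FER2 had 0.19 and -0.20, and VIT2, a vacuolar iron transporter gene, had -0.51. Transporters of other metals gave 0 of 9 (median 0.251), aquaporins 0 of 10 (0.482), phosphate genes 0 of 5 (0.343) and nitrogen genes 1 of 14 (0.452). The ferrous transporter gene IRT2, at a mean of 12.9 normalised reads, lay below the minimum for candidates. The lists and the names come from general knowledge.

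Against mock, the members' fold changes were negative throughout after ASM and nearly throughout after PA2x, and of both signs after BABA and PA1x. Their median log2 fold change, on log2(value + 1), was -0.11 for BABA (72 members negative), -0.52 for ASM (100 negative), -0.37 for PA2x (98 negative) and -0.04 for PA1x (62 negative). Over all 18316 genes tested, those with a mean of at least 5, the medians were -0.00928, -0.0135, -0.00411 and -0.00304 in that order. PA2x against PA1x gave -0.24 (98 negative), with -0.0215 over all genes. The 4 comparisons with mock share the mock libraries, and PA2x and PA1x enter 2 comparisons each. IRT1 itself had log2 fold changes of -0.16 for BABA, -0.80 for ASM, -0.58 for PA2x and -0.13 for PA1x against mock and -0.44 for PA2x against PA1x (SE 0.31 each).

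The medians for ASM and PA2x moved with the 3 low libraries. With ASM replicates 2 and 3 and PA2x replicate 2 left out, the ASM median was 0.02, with ASM replicate 1 alone against mock. Without ASM replicate 1 it was -0.80, and without PA2x replicate 2 alone the PA2x medians were -0.15 against mock and -0.05 against PA1x. Root markers moved alongside only in part. The 5 detected genes of the root list summed to 20478, 23623 and 22211 normalised reads in BABA, 17393, 13455 and 13173 in ASM, 21766, 17506 and 23780 in PA2x, 23072, 25417 and 28254 in PA1x, and 23781, 20829 and 24165 in mock. Their sum was lowest in ASM replicates 3 and 2. However, ASM replicate 1, high in the members, was also below all mock libraries and below PA2x replicate 2, low in the members. Leaf markers summed to 22.9 to 119 in ASM, 7.43 to 45.8 in PA2x, 18.5 to 295 in PA1x and 17.1 to 293 in mock. The part of either in the members' levels was not tested.

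**Figure D5:**
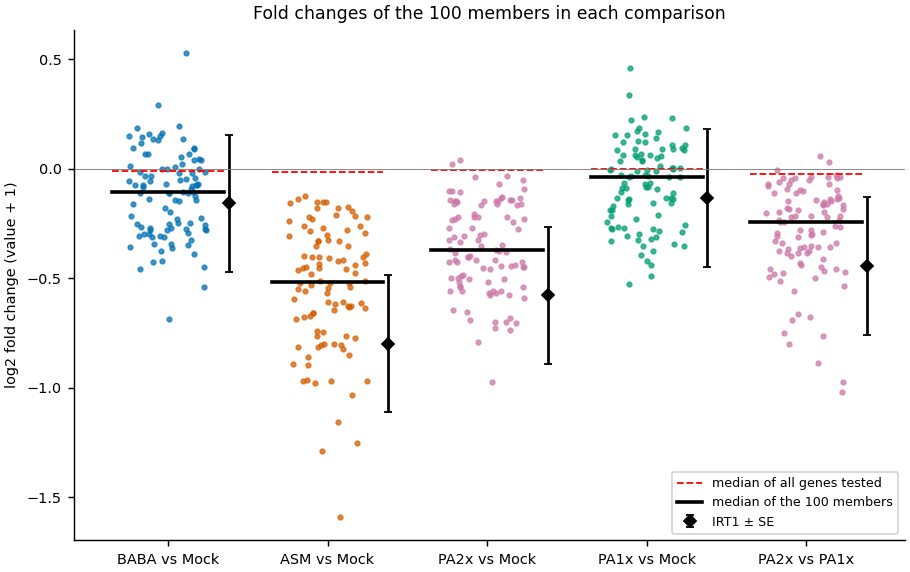
Log2 fold change on log2(value + 1) (vertical axis) of each of the 100 members (points) in 5 comparisons (horizontal axis), with the median of the members (black bar), the median of all genes tested (red dashed line) and IRT1 (diamond, ± SE). All members are negative for ASM against mock, with a median of -0.52, and 98 are negative in both PA2x comparisons.

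As the rule used every library, calls among the members are counts without weight as tests. A gene was called at an adjusted p under 0.05 in limma with Benjamini-Hochberg adjustment over all genes tested. For ASM, 9 members were called, all lower, where 4.53% of all genes were called and 1.26% were called lower. They were NIA1, Os02g0731900, Os02g0810900, Os03g0368000, Os04g0380300, Os06g0113900, Os06g0247000, Os07g0520600 and Os12g0282000. The count was 8 with edgeR and 14 with DESeq2, 3 without ASM replicate 2, ASM replicate 3 or mock replicate 1, and 56 without ASM replicate 1. The lowest log2 fold changes were those of Os07g0499500 (-1.59 ± 0.45), Os03g0368000 (-1.29 ± 0.31) and NIA1 (-1.25 ± 0.22, SE). In the other comparisons limma called 0 members. At an unadjusted p under 0.05 there were 5 for BABA, 25 for PA2x and 3 for PA1x against mock, and 17 for PA2x against PA1x, where 10.3%, 11.8%, 12.5% and 22.4% of all genes tested reached that p. Of these 4 counts, only that for PA2x against mock lay above its share of all genes. EdgeR called 0 in these 4, and DESeq2 called 2 for PA2x against mock, 3 for PA2x against PA1x and 0 in the others. Over all genes, 0.251% were called for BABA, 0.928% for PA2x, 3.53% for PA1x and 11.3% for PA2x against PA1x.

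Of the iron and methionine salvage lists, 33 genes were not in the set, and 27 of these reached the minimum for the test. Being outside the members was itself decided by r. With ASM 5 of the 27 fell and 0 rose (1.26% of all genes were called lower), and edgeR and DESeq2 also called 5. They include regulators of both signs. The gene bHLH156 (Os04g0381700) encodes the partner that brings IRO2 into the nucleus. It had 273, 280 and 259 normalised reads in BABA, 210, 131 and 139 in ASM, 297, 222 and 264 in PA2x, 434, 443 and 435 in PA1x, and 388, 370 and 354 in mock. Each ASM value lay below each value of every other group. With ASM it fell by 1.24 ± 0.15 (SE) on the log2 scale against mock (limma adjusted p = 0.000165), and it passed in all 14 alternatives, with a highest adjusted p of 0.00931.

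IRO3 (Os03g0379300), a bHLH repressor of iron deficiency genes, had 66.2, 64.3 and 91.8 normalised reads in BABA, 72.6, 52.0 and 40.4 in ASM, 81.5, 65.8 and 88.6 in PA2x, 146, 157 and 169 in PA1x, and 120, 129 and 104 in mock. All values of BABA, ASM and PA2x lay below those of PA1x and mock. Against mock it fell with ASM by 1.12 ± 0.20 on the log2 scale (limma adjusted p = 0.00333), a call lost without the 3 low libraries (-0.68, adjusted p = 0.163), where 1 ASM library is left. Both bHLH156 and IRO3 followed IRT1 little over the 12 libraries, with r of 0.0735 and -0.0319.

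The remaining 3 genes that fell with ASM were transporter genes and a salvage gene. OPT7 (Os03g0751100), involved in iron distribution, fell by 0.66 ± 0.13 (limma adjusted p = 0.00823). NRAMP1 (Os07g0258400), which carries iron and cadmium, fell by 0.84 ± 0.19 (0.0158), and MTK1 by 0.62 ± 0.13 (0.0123). OPT7 passed in 12 of 14 alternatives, NRAMP1 and MTK1 in 9 each, and all 3 lost the call without the 3 low libraries (limma adjusted p = 0.275, 0.498 and 0.419). With the 1 ASM library left there, their log2 fold changes were -0.48, -0.35 and -0.30 in that order. With the compared groups alone, all 3 genes lost the call as well. NRAMP1 and MTK1 lost it also without ASM replicate 2, ASM replicate 3 or mock replicate 1.

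For PA2x against PA1x limma called 3 of the same 27 genes, with 1 higher and 2 lower. Of all genes, 11.3% were called, 8.31% higher and 2.96% lower, so the count of 3 in 27 lay near the share of all genes. EdgeR called 3 and DESeq2 4. IRO3 fell by 1.00 ± 0.20 (SE; limma adjusted p = 0.00266) and bHLH156 by 0.75 ± 0.15 (0.0028), on the log2 scale, and both passed in all 14 alternatives. Without PA2x replicate 2 their adjusted p were 0.0179 and 0.0194, the highest of any alternative. IDEF2 (Os05g0426200), a NAC factor that acts on iron deficiency genes, rose by 0.33 ± 0.09 (0.0329). It had 3521, 3302 and 3286 normalised reads in PA2x, and 2717, 2693 and 2634 in PA1x. The groups did not overlap, but this call held in 7 of 14 alternatives, with adjusted p up to 0.12. In these 27 genes limma called 0 for BABA, PA2x and PA1x against mock, with 6, 5 and 1 at an unadjusted p under 0.05, which 10.3%, 11.8% and 12.5% of all genes reached. EdgeR also called 0, and DESeq2 called 1 for PA1x and 0 for the others.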

How the data were processed

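QuantSeq 3′ libraries, which count reads at transcript 3′ ends, were made from 2 µg of RNA of 15 root samples, per the labels' protocols. The values are a signal in the deposited table, counts of reads over a library's size factor, made by the authors, per the submitters' processing notes, which name FastQC 0.11.8, Trimmomatic 0.38, STAR 2.6.1d and DESeq2. The build, the strand setting and the annotation were not given in the sources used here. Antisense, overlapping and near-copy genes are therefore uncertain. Whole reads were recovered for 100% of values within a tolerance of 0.1, and 3 reads correspond to 1.96 to 4.84 normalised reads. Each pair of replicates differed by more than counting noise, with chi-square over its degrees of freedom at 4.22 to 33.4.

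The members and gene lists were chosen with earlier results of these data known. Of 36747 rows, 35667 were rice genes. One limma 3.58.1 trend fit (R 4.3.3) on log2(value + 1) of all 15 libraries gave every comparison, two-sided. Fold changes of low genes are understated on this scale. Alternatives were edgeR 4.0.16 and DESeq2 1.42.0 on the recovered reads, another pseudocount or minimum, a replicate block, the compared groups alone, each replicate left out, and 12 libraries, chosen after seeing the data. The fit was tested on simulated data.

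The text names IRT1, members on a list, called list genes, genes at the edge of the set, and members extreme by r, mean, range or fold change. The RefSeq table of assembly ASM3414082v1 held 1 of the identifiers. For 13 of 18 names of members and IRT1 it had a namesake on the same chromosome, for TOM1, IRO2, ARD1 and FDH on others only, and for IDI4 none. The listed ARD2 (Os10g0419400), not a member, also had its namesake on another chromosome only. Which of these genes bears the name ARD1 is therefore uncertain. The gene lists also held markers of root, root hair, secondary wall and leaf.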

Additional observations from a re-analysis of the deposited data

How the results depend on the processing

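Of the 100 members, 96 were again among the 100 highest with a pseudocount of 8, 99 with TMM scaling, 92 and 71 with minimum means of 5 and 100, 45 with Spearman's rho, 48 with within-group deviations, 13 with the 5 group means, 44 without the ASM group and 19 over the 12 libraries chosen after seeing the data, which leave 1 ASM library assumed to vary like the other groups. Leaving out each replicate gave 68 (ASM replicate 3) to 95, and 55 members remained in all 15 such sets. The main fit treated samples as unpaired, and likeness by replicate number was mixed. Of 30 same-numbered pairs, 15 had a correlation of deviations over 0.1 (-0.488 to 0.582). Of 15 libraries, 7 were most like a same-numbered one. In 0 of the 5 comparisons were all 3 pairs over 0.1. Outside ASM, however, all 12 pairs numbered 2 or 3 were over 0.1 (0.102 to 0.582), so these pairs were alike to a varying degree. This subset was picked after the values were seen, and the pairs numbered 1 outside ASM ran from -0.0105 to 0.174. With the replicate as a block, 74 members were again in the set. Members called were then 14 for ASM and 4 for PA2x against PA1x, where the main fit called 9 and 0.

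Over all genes, BABA called 86 with a minimum mean of 20, 202 with DESeq2, 10 with the compared groups alone and 72 with 12 libraries. ASM called 394 with the compared groups alone and 368 with 12 libraries. PA2x called 372 with DESeq2, 23 with the compared groups alone and 71 with 12 libraries. Among members, ASM called 14 with DESeq2, 4 with the compared groups alone and 1 with 12 libraries, where the median was 0.0232. BABA, PA2x and PA1x against mock each called 1 with 12 libraries. PA2x called 2 with DESeq2, and PA1x called 1 with the compared groups alone. PA2x against PA1x called 1 with a pseudocount of 8, a minimum mean of 20 or 12 libraries, 3 with DESeq2 and 4 with the compared groups alone.

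Leaving out each replicate gave 2 to 98 calls over all genes for BABA, 366 to 879 for ASM, 30 to 243 for PA2x, 313 to 618 for PA1x and 1385 to 2327 for PA2x against PA1x. Members called ran from 3 to 56 for ASM and 0 to 5 for PA2x against PA1x, and were 0 in the others. Medians ran from -0.18 to -0.07, -0.80 to -0.34, -0.48 to -0.15, -0.10 to 0.01 and -0.39 to -0.05, in the same order. For 56 named or iron list genes over all alternatives, called values stayed called in 277 of 378 cases and lost the call in the others. Values not called became so in 45 of 3532. Changes of sign were counted only where the gene was called in the main fit or the alternative, and there were 0 of these. Except where a setting leaves out libraries or genes by construction, the cause was not tested. The limits are 3 pools per group, 3′ end counts and a set that rests on 3 libraries.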

Other observations

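Of the nitrogen, phosphate, aquaporin and other metal transport lists, 8 genes outside the members were called in at least 1 of the 5 comparisons. Genes tested outside the members were 13, 5, 10 and 9 in that order. For PA2x against PA1x, 0, 1, 1 and 3 of these were called, where 11.3% of all genes were. With ASM, 1 phosphate gene was called higher, and 1 phosphate and 1 other metal gene lower, where 4.53% of all genes were called. PA2x against mock had 2 nitrogen genes (0.928% of all genes) and PA1x against mock 1 phosphate gene (3.53%). Whether any list was called more often than all genes was not tested. The phosphate transporter gene PT8 (Os10g0444700) rose with ASM by 0.60 ± 0.13 on the log2 scale (SE; limma adjusted p = 0.0121), fell with PA1x against mock by 0.49 ± 0.13 (0.0398), and rose in PA2x against PA1x by 0.66 ± 0.13 (0.00204). The zinc transporter gene ZIP4 (Os08g0207500) fell with ASM by 0.84 ± 0.17 (limma adjusted p = 0.00846) and in PA2x against PA1x by 0.68 ± 0.17 (0.0143). Its call for ASM held in all 14 alternatives. That for PA2x against PA1x was lost without PA2x replicate 3 or PA1x replicate 2. PT8 lost its call for ASM with the compared groups alone or without mock replicate 1, and for PA1x in 7 of 14 alternatives. In PA2x against mock the nitrate genes NAR2.1 (Os02g0595900, -1.19 ± 0.27) and NRT1.1B (Os10g0554200, -1.20 ± 0.25) fell (limma adjusted p = 0.0478 and 0.0311), and they passed in 6 and 10 of 14 alternatives.

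The zinc transporter genes ZIP5 (Os05g0472700) and ZIP9 (Os05g0472400) fell in PA2x against PA1x by 0.94 ± 0.24 and 0.41 ± 0.12 on the log2 scale (SE; limma adjusted p = 0.0166 and 0.0359), and passed in 11 and 7 of 14 alternatives. ZIP5 lost the call without PA2x replicate 2, PA1x replicate 3 or the 3 low libraries. The aquaporin gene PIP2;3 (Os04g0521100) fell in the same comparison by 0.43 ± 0.13 (limma adjusted p = 0.0403) and passed in 6 of 14. PHO2 (Os05g0557700), a regulator of phosphate uptake, fell with ASM by 0.42 ± 0.11 (limma adjusted p = 0.0422) and passed in 3 of 14, in none with a library of either group left out.

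Of 5 root markers tested, Lsi1 (Os02g0745100), Lsi2 (Os03g0107300) and SHR1 (Os07g0586900), genes of silicon transport and of root radial patterning, fell with ASM (limma adjusted p = 0.0102, 0.0429 and 0.0176) and in PA2x against PA1x (0.00141, 0.0323 and 0.000131). RCc3 and SCR1 were called in neither comparison. With ASM their log2 fold changes were -0.74 and -0.40 (limma adjusted p = 0.106 and 0.55). In PA2x against PA1x, 4 of the 5 root markers were negative and 1 was positive. Lsi1 had 4732, 4121 and 4159 normalised reads in ASM, 5202, 3778 and 5465 in PA2x, 7320, 8409 and 8327 in PA1x, and 7057, 7274 and 6274 in mock. The lowest of these was PA2x replicate 2. Without the 3 libraries low in IRT1, which leaves 1 ASM library, the log2 fold changes for ASM were -0.53, -0.35 and -0.77, against -0.66, -0.46 and -0.85 with all libraries, and none was called (limma adjusted p = 0.113, 0.375 and 0.218). For ASM, Lsi1 passed in 11, Lsi2 in 6 and SHR1 in 9 of 14 alternatives. For PA2x against PA1x, Lsi1 and SHR1 passed in all 14 and Lsi2 in 8, and Lsi2 lost the call without PA2x replicate 2 or any of the PA1x replicates. SHR1 rose with PA1x against mock by 0.75 ± 0.19 (SE; limma adjusted p = 0.0398), a call that held in 7 of 14. The secondary wall marker CESA7 (Os10g0467800) also rose there, by 0.71 ± 0.19 (limma adjusted p = 0.0455). CESA4 and CESA9 were not called (0.174 and 0.152). The call of CESA7 was not followed over the alternatives.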
